A study of Mus musculus with 9 samples.

Results

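The 10 genes described here, Atf4, Atf3, Ddit3, Trib3, Chac1, Asns, Slc7a11, Ppp1r15a, Ddit4 and Sesn2, are markers of the integrated stress response, taken by symbol from a table of 23453 gene symbols. All 10 were in the table and passed the filter on low counts in each comparison. They were measured by bulk RNA-seq in wild-type mouse cells in 3 states, with 3 libraries per state and 9 in all. Epiblast-like cells (EpiLC), a culture model of the early post-implantation epiblast, were made from naive embryonic stem cells over 48 h in N2B27 medium with 1% KSR (a serum replacement), FGF2 and Activin A. Anterior epiblast-like cells (aEpiLC) were EpiLC kept for 24 h more without added factors, in what the labels call N2B27 basal medium. Posterior epiblast-like cells (pEpiLC) were EpiLC kept for 24 h more with Activin and CHIR99021, an agonist of Wnt/β-catenin signalling. The study's methods list KSR in both later media. No strain, cell line or batch is named for these libraries, and nothing says that replicates came from separate cultures, so p-values measure the spread between these libraries, which may be technical.

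In the integrated stress response, 4 kinases that sense different stresses phosphorylate the initiation factor eIF2. General translation then slows while the mRNA of the transcription factor ATF4 is translated more. ATF4, often with partners such as ATF3 and CHOP (encoded by Ddit3), raises the transcription of genes for amino acid synthesis and uptake, tRNA charging and feedback. Because ATF4 is controlled largely at translation, mRNA levels report its targets more directly than its own activity. In cultured cells the targets are known to follow amino acid supply, growth factor signalling and endoplasmic reticulum (ER) stress, and the data hold no measure of eIF2 phosphorylation or of protein.

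The total count lay between 20560564 and 23417917 per library, and 3 counts, taken as the detection limit, corresponded to 0.131 to 0.144 CPM (library-scaled counts, with TMM factors set over all 9 libraries). The lowest value of a member in any library was 4.69 CPM, for Ddit3. EpiLC and formative marker genes summed to between 4438 and 4750 CPM in EpiLC, 4122 and 4343 CPM in aEpiLC and 1810 and 3088 CPM in pEpiLC, where posterior and streak markers summed to between 800.2 and 2406 CPM against at most 38.0 CPM in the other states. Anterior and neural markers summed to between 246 and 285 CPM in aEpiLC, and to at most 176 CPM elsewhere. Sums for extraembryonic endoderm and fibroblast feeder lists were at most 26.2 and 24.6 CPM. The blood and endothelium list summed to between 9.67 and 15.9 CPM in EpiLC, 2.21 and 2.62 in aEpiLC and 2.79 and 6.18 in pEpiLC, and naive pluripotency markers to between 30.5 and 34.7, 18.0 and 19.6, and 23.42 and 26.0 CPM. Both sums were thus lower in the later states, as most of the 10 genes were, and their part in the results was not tested. Only 1 blood and endothelium gene passed the filter against EpiLC, at a log2 fold change of -2.80 in aEpiLC and -2.78 in pEpiLC. The fall of that sum therefore does not describe the list as a whole. Of the endoderm, fibroblast and blood lists, 6 of 8, 6 of 8 and 5 of 6 genes were in the table, and the first lacks Ttr and Afp. The library labelled pEpiLC replicate 1 stood apart: 321 and 326 of 15793 genes differed over 4-fold between it and the other pEpiLC libraries, against 57 to 75 in every other pair within a state. The streak gene T was at 1093 CPM in it and at 206 and 222 CPM in replicates 2 and 3.

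ATF4 binds a composite element of C/EBP and ATF binding sequences, searched here as TGATGNAAN on both strands in RefSeq promoters (GRCm38.p6, from 250 bases before the transcript start to 50 after it). All 10 genes had a promoter in that set. The letters were in 5 of them (Atf3, Chac1, Trib3, Slc7a11 and Asns), against 1299 of 32851 promoters overall (3.95%). The full cyclic AMP response element TGACGTCA, no match of which is a match of the first motif, was in 588 promoters overall (1.79%) and in that of Ppp1r15a. The windows below are printed 5′ to 3′ on the strand of the gene, with the matched letters in capitals, because they are the stretches in which these members carry either motif. They span 60 bases, or 30 where the match overlaps a transcript.
Atf3: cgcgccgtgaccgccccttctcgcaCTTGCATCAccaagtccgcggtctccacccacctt
Chac1: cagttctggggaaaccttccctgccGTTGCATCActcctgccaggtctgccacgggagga
Slc7a11: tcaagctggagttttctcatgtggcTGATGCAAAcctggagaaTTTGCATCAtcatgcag
Trib3: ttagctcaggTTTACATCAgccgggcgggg
Asns: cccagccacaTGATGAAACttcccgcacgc
Ppp1r15a: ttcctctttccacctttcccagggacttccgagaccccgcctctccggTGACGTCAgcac

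On GRCm38.p6 the Atf3 window is chr1:191183410-191183469 on the minus strand, with its match 111 to 103 bases before the start. That of Chac1 is chr2:119351023-119351082 on the plus strand, with the match 194 to 186 bases before the start. The Slc7a11 window, chr3:50443645-50443704 on the minus strand, holds 2 matches facing each other, the first 66 to 58 and the second 48 to 40 bases before the start. The Trib3 match lies 14 to 22 bases after the start (window chr2:152344028-152344057, minus strand). The Asns match lies 23 to 15 bases before the RefSeq start (window chr6:7693213-7693242, minus strand), inside an exon of the GENCODE model, which begins further upstream. That of Ppp1r15a lies 12 to 5 bases before the start (window chr7:45526269-45526328, minus strand). A match is a string of letters and was not tested as a binding site. Atf4, Ddit3, Ddit4 and Sesn2 held neither string in this window, which says nothing of elements elsewhere.

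Levels between genes were compared only in EpiLC and only as CPM per kilobase of merged exons. Atf4 stood highest at 124.6 ± 5.16 CPM per kilobase (SD, n = 3), followed by Asns at 113 ± 7.05, Ddit4 at 86.5 ± 14.3 and Sesn2 at 61.7 ± 4.51. Chac1 at 47.0 ± 6.02 and Trib3 at 44.3 ± 1.85 CPM per kilobase overlapped between libraries and could not be ordered. Ppp1r15a at 18.8 ± 1.37, Ddit3 at 12.1 ± 1.97, Atf3 at 4.996 ± 0.0601 and Slc7a11 at 1.099 ± 0.0776 CPM per kilobase completed the order, and in every other neighbouring pair the libraries of the 2 genes did not overlap. Part of the order rests on the gene model: with the longest transcript as the length, Asns (153 CPM per kilobase) stood above Atf4 (145) and Ddit3 (21.4) above Ppp1r15a (19.7).

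Of the 10 genes, 7 fell from EpiLC to aEpiLC and none rose, at an adjusted p below 0.05 in edgeR's quasi-likelihood test with Benjamini-Hochberg adjustment over all genes, the rule for every call below. They were Ddit3, Ddit4, Asns, Chac1, Trib3, Sesn2 and Ppp1r15a. In the same fit 22.6% of the 15301 genes tested fell and 24% rose. The median log2 fold change was -0.60 over the 10 genes and 0.00226 over all genes tested. From EpiLC to pEpiLC 7 fell and none rose, namely Atf3, Atf4, Ddit3, Asns, Chac1, Trib3 and Ppp1r15a, against 21.4% lower and 22.8% higher among 15288 genes. The median log2 fold change was -0.87 over the 10 genes and 0.02 over all genes, and every fitted value of the 10 was below 0. Both comparisons use the same EpiLC libraries. Between the later states only Ddit4 was called, higher in pEpiLC, where 6.28% of 15198 genes were higher and 9.3% lower, so 1 call in 10 genes is near the background. The pEpiLC count against EpiLC was 4 (Ddit3, Asns, Trib3 and Ppp1r15a) without EpiLC replicate 1, 2 or 3 or without pEpiLC replicate 3. It was 7 without pEpiLC replicate 1, with Slc7a11 in and Atf3 out of that set. The share of all genes called lower moved as well. It was 15.6%, 14.2%, 14% and 18% in the 4 former fits, in that order, and 26% in the latter. In bulk RNA, fewer cells with a transcript and less of it per cell cannot be told apart.

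**Figure D1:**
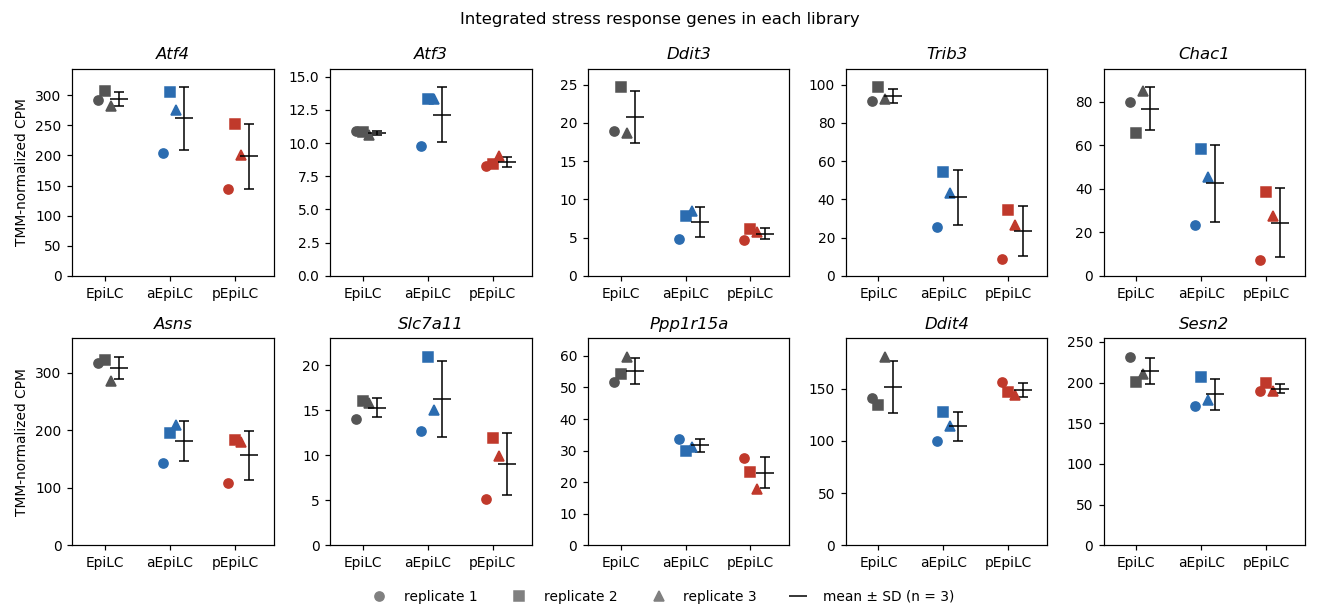
CPM (TMM-normalized, linear axis from 0) of each of the 10 genes in the 9 libraries, with symbols for replicates 1, 2 and 3 and a black mark for the mean ± SD of the 3 libraries of each state. Trib3, Chac1, Asns, Ddit3 and Ppp1r15a sit lower in all 6 later libraries than in EpiLC, and replicate 1 is the lowest library of both later states for every gene but Ppp1r15a and Ddit4.

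Atf4 encodes the central transcription factor of the response and lies at chr15:80255184-80257541 on the plus strand (ENSMUSG00000042406.8, GENCODE vM21 on GRCm38, as for all gene models here). It had 292, 306 and 282 CPM in EpiLC replicates 1, 2 and 3, then 204, 305 and 276 CPM in aEpiLC and 144, 252 and 200.4 CPM in pEpiLC. The aEpiLC range reached into that of EpiLC, and all pEpiLC libraries lay below every EpiLC library. The log2 fold change was -0.18 ± 0.108 (SE) in aEpiLC (adjusted p = 0.182) and -0.57 ± 0.173 in pEpiLC (adjusted p = 0.0306). The second call was lost without any 1 of the EpiLC replicates and without pEpiLC replicate 3, with adjusted p between 0.00100 and 0.0998 over the 13 other fits (other tools, filters, scalings and left-out libraries). Leaving out aEpiLC replicate 2 brought the aEpiLC value to -0.30 with an adjusted p of 0.0350.

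Atf3, a stress-induced repressor and activator of the same family, lies at chr1:191170296-191218039 on the minus strand (ENSMUSG00000026628.13). Its level was 10.9, 10.8 and 10.6 CPM in EpiLC, 9.75, 13.3 and 13.3 CPM in aEpiLC and 8.28, 8.41 and 9.03 CPM in pEpiLC. The pEpiLC libraries lay below all others, and aEpiLC surrounded EpiLC. It fell in pEpiLC to 79.5% of EpiLC, with a log2 fold change of -0.33 ± 0.115 and an adjusted p of 0.0490, and 11 of the 13 other fits did not keep that call (highest adjusted p = 0.121). In aEpiLC the value was 0.16 ± 0.134 (adjusted p = 0.355).

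Ddit3 encodes CHOP, which links a long stress response to cell death, and lies at chr10:127290774-127296288 on the plus strand. The symbol covers 2 GENCODE genes (ENSMUSG00000025408.15 and ENSMUSG00000116429.1). Levels were 18.9, 24.6 and 18.7 CPM in EpiLC, 4.83, 7.87 and 8.42 CPM in aEpiLC and 4.69, 6.18 and 5.73 CPM in pEpiLC. The highest of the 6 later libraries, at 8.42 CPM, lay well under the lowest EpiLC library at 18.7 CPM. Ddit3 fell to 33.7% of EpiLC in aEpiLC (log2 fold change -1.57 ± 0.179, adjusted p = 1.18e-05) and to 26.6% in pEpiLC (-1.91 ± 0.166, adjusted p = 0.000230). Both calls held in each of the 13 other fits. Exons of Ddit3 overlap those of Mars1, the methionyl-tRNA synthetase, and of Gm4189 on the other strand, strandedness is not given in the sources used here, and 3 of 9 Ddit3 counts were not whole. Mars1 itself was at 352 ± 17.1 CPM in EpiLC, 243 ± 32.6 in aEpiLC and 202 ± 57.2 in pEpiLC, while Gm4189 had at most 2 counts in a library, so the value of Ddit3 is uncertain by the share of reads from that partner, which was not tested.

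Trib3 encodes a pseudokinase that ATF4 induces and that restrains ATF4 in turn. It lies at chr2:152337422-152344032 on the minus strand (ENSMUSG00000032715.9). Its level was 91.3, 98.6 and 92.3 CPM in EpiLC, 25.6, 54.3 and 43.3 CPM in aEpiLC and 9.05, 34.4 and 26.6 CPM in pEpiLC. The states of EpiLC and either later state did not overlap, and replicate 1 was lowest in both later states. Trib3 fell to 43.2% of EpiLC in aEpiLC (log2 fold change -1.21 ± 0.177, adjusted p = 9.85e-05) and to 24.8% in pEpiLC (-2.01 ± 0.391, adjusted p = 0.00539), and both calls held in each of 13 other fits.

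Chac1, which encodes an enzyme that degrades glutathione, lies at chr2:119351229-119354381 on the plus strand (ENSMUSG00000027313.3). It had 79.9, 65.9 and 84.9 CPM in EpiLC, 23.6, 58.6 and 45.5 CPM in aEpiLC and 7.18, 38.5 and 27.6 CPM in pEpiLC. Every EpiLC library was above every later library, with wide spread inside both later states. The fitted level was 54.8% of EpiLC in aEpiLC (log2 fold change -0.87 ± 0.216, adjusted p = 0.00496) and 31.7% in pEpiLC (-1.66 ± 0.480, adjusted p = 0.0256). The first call was lost with DESeq2 and with all 9 libraries in one fit, where adjusted p reached 0.165. The second was lost without any 1 of the EpiLC replicates and without pEpiLC replicate 3 (highest adjusted p = 0.0818).

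Asns encodes asparagine synthetase and lies at chr6:7675169-7693254 on the minus strand (ENSMUSG00000029752.12). Its level was 317, 322 and 286 CPM in EpiLC, 142, 194 and 209 CPM in aEpiLC and 108, 184 and 179 CPM in pEpiLC. The later states overlapped each other and lay below EpiLC in every library. Asns fell to 58.4% of EpiLC in aEpiLC (log2 fold change -0.78 ± 0.109, adjusted p = 7.08e-05) and to 50.7% in pEpiLC (-0.98 ± 0.183, adjusted p = 0.00464), calls that held in each of 13 other fits.

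Slc7a11, the light chain of the cystine and glutamate exchanger that feeds glutathione synthesis, lies at chr3:49892526-50443614 on the minus strand (ENSMUSG00000027737.10). Its counts were not whole in any of the 9 libraries, so RSEM shared some of its reads with other transcripts. It had 14.1, 16.0 and 15.8 CPM in EpiLC, 12.8, 20.9 and 14.99 CPM in aEpiLC and 5.17, 11.96 and 9.97 CPM in pEpiLC. The aEpiLC libraries surrounded those of EpiLC, and the pEpiLC libraries lay below all 6 others. Neither log2 fold change against EpiLC was called, at 0.07 ± 0.154 in aEpiLC (adjusted p = 0.736) and -0.76 ± 0.271 in pEpiLC (adjusted p = 0.0521). In pEpiLC 8 of 13 other fits called it, with adjusted p between 0.00491 and 0.140.

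Ppp1r15a encodes GADD34, the stress-induced subunit that brings protein phosphatase 1 to eIF2 and ends the response. It lies at chr7:45522916-45526268 on the minus strand (ENSMUSG00000040435.12). Levels were 51.8, 54.4 and 59.7 CPM in EpiLC, 33.8, 29.8 and 31.2 CPM in aEpiLC and 27.6, 23.3 and 17.9 CPM in pEpiLC. The 3 states did not overlap. Ppp1r15a fell to 56.6% of EpiLC in aEpiLC (log2 fold change -0.82 ± 0.0788, adjusted p = 2.45e-06) and to 41.4% in pEpiLC (-1.27 ± 0.155, adjusted p = 0.000851), and both calls held in each of 13 other fits. Its exons overlap Tulp2 on the other strand, and Tulp2 was at 2.28 ± 0.175, 1.76 ± 0.622 and 0.725 ± 0.398 CPM in EpiLC, aEpiLC and pEpiLC.

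Ddit4 and Sesn2 both restrain mTORC1, the kinase complex that drives growth, and both also answer to signals outside this response. Ddit4 (REDD1) lies at chr10:59949669-59951834 on the minus strand (ENSMUSG00000020108.4) and had 141, 134 and 180.4 CPM in EpiLC, 100.1, 128 and 114 CPM in aEpiLC and 156, 146 and 144 CPM in pEpiLC. It was lowest in aEpiLC, without overlap with either other state, and EpiLC surrounded pEpiLC. Ddit4 fell to 74.3% of EpiLC in aEpiLC (log2 fold change -0.43 ± 0.107, adjusted p = 0.00519), a call that held in each of 13 other fits, and the pEpiLC value was -0.03 ± 0.112 (adjusted p = 0.834). Sesn2 (sestrin 2), at chr4:132492032-132510501 on the minus strand (ENSMUSG00000028893.8), had 231, 201 and 211 CPM in EpiLC, 171, 207 and 179 CPM in aEpiLC and 189, 199 and 189.7 CPM in pEpiLC. Its values spanned the narrowest relative range of the 10 genes. The log2 fold change was -0.22 ± 0.0763 in aEpiLC (adjusted p = 0.0293, lost without EpiLC replicate 1 or 3 and without aEpiLC replicate 1 or 3, at up to 0.140) and -0.16 ± 0.0639 in pEpiLC (adjusted p = 0.0793).

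**Figure D2:**
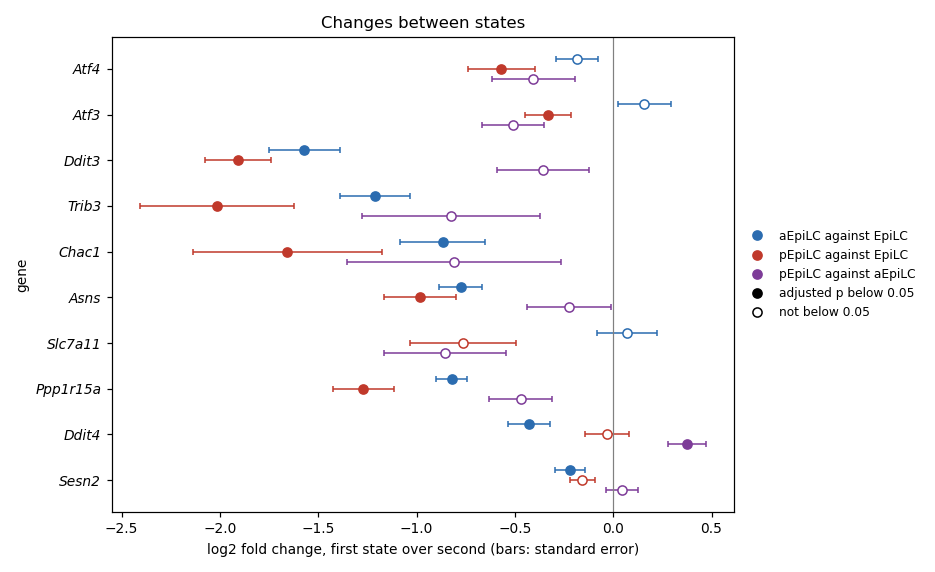
Fitted log2 fold change of each gene (horizontal axis, first state over second) with its standard error in the 3 comparisons. Filled points have an adjusted p below 0.05: 7 genes in each comparison with EpiLC, all left of 0, and in pEpiLC against aEpiLC only Ddit4, right of 0 at 0.38.

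Between the 2 states that followed EpiLC, 8 of the 10 fitted values were below 0 in pEpiLC against aEpiLC and their median was -0.44, against 0.01 over all genes. None of the 8 was called lower by edgeR's quasi-likelihood test, where an unadjusted p below 0.05, DESeq2 and a fit of all 9 libraries each named 3, Atf3, Slc7a11 and Ppp1r15a. The intervals remained wide. For Chac1 the log2 fold change was -0.81 with a 95% confidence interval from -2.08 to 0.46 (adjusted p = 0.358), and for Trib3 it was -0.82, from -1.87 to 0.22 (adjusted p = 0.258). Slc7a11 was at -0.85, from -1.57 to -0.14 (adjusted p = 0.106), Atf3 at -0.51, from -0.87 to -0.15 (adjusted p = 0.0657), and Ppp1r15a at -0.47, from -0.84 to -0.10 (adjusted p = 0.0885). Atf4 was at -0.41, from -0.89 to 0.08, Ddit3 at -0.36, from -0.90 to 0.19, and Asns at -0.22, from -0.72 to 0.27. Sesn2 was at 0.04, from -0.15 to 0.23 (adjusted p = 0.767), the narrowest of the 10 intervals.

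Ddit4 rose by 0.38 ± 0.0953 on the log2 scale in pEpiLC over aEpiLC, to 130% of the aEpiLC level (adjusted p = 0.0367, 95% confidence interval 0.15 to 0.60). The call was lost without aEpiLC replicate 1, aEpiLC replicate 3, pEpiLC replicate 2 or pEpiLC replicate 3, and its adjusted p ranged from 0.00640 to 0.109 in 14 other fits. The libraries of the 2 states did not overlap for 4 genes, Atf3, Ddit4, Slc7a11 and Ppp1r15a, where 39% of all genes tested showed the same, so this count is at the background. Against EpiLC the corresponding counts were 6 of 10 in aEpiLC, near the 56.1% of all genes, and 9 of 10 in pEpiLC, all but Ddit4, against 58.6%.

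Replicate 1 set much of the spread. When replicate 1 of both later states was left out, an alternative chosen after seeing the data, 6 genes were called lower in pEpiLC than aEpiLC (Atf3, Atf4, Chac1, Trib3, Slc7a11 and Ppp1r15a) and Ddit4 stayed higher. In that fit, 12.5% of all genes tested were called lower and 8.75% higher, against 9.3% and 6.28% with all 6 libraries. Without pEpiLC replicate 1 alone, Atf3 and Ppp1r15a were called lower, where 12.8% of all genes were. Without aEpiLC replicate 1 alone, Atf3 was, where 4.07% of all genes were. The mean of the 10 genes after scaling each one's log2 CPM over the 9 libraries (a z-score) was 0.85, 0.75 and 0.91 in EpiLC, -0.77, 0.39 and 0.02 in aEpiLC and -1.27, -0.28 and -0.60 in pEpiLC. The aEpiLC replicate 1 value was thus below pEpiLC replicates 2 and 3. The pEpiLC library with the lowest of these values was the one with T at 1093 CPM, and the part of that difference in the result was not tested. In aEpiLC, T was at 1.22, 0.859 and 0.598 CPM.

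Within each library the members were also set against Atf4 mRNA, as the log2 ratio of their CPM to that of Atf4. Relative to its EpiLC mean, the Trib3 ratio was lower by 1.36, 0.85 and 1.03 in aEpiLC and by 2.35, 1.23 and 1.27 in pEpiLC replicates 1, 2 and 3. For Chac1 the corresponding ratio was lower by 1.17, 0.44 and 0.66 in aEpiLC and by 2.38, 0.77 and 0.92 in pEpiLC. The Asns ratio was lower by between 0.47 and 0.72 in aEpiLC and between 0.23 and 0.52 in pEpiLC. The Ddit3 ratio was lower by between 1.20 and 1.57 in aEpiLC and between 1.103 and 1.51 in pEpiLC. The Sesn2 and Ddit4 ratios were above the EpiLC mean in all 3 pEpiLC libraries, by 0.12 to 0.85 for Sesn2 and by 0.18 to 1.08 for Ddit4, and in aEpiLC they ran from -0.17 to 0.20 and from -0.31 to -0.07. Those of the other members lay on both sides of the EpiLC mean: Atf3 between 0.25 and 0.40 in aEpiLC and between -0.13 and 0.65 in pEpiLC, Slc7a11 between 0.06 and 0.40 and between -0.53 and -0.07, and Ppp1r15a between -0.94 and -0.19 and between -1.07 and 0.03. These are descriptions with no test.

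**Figure D3:**
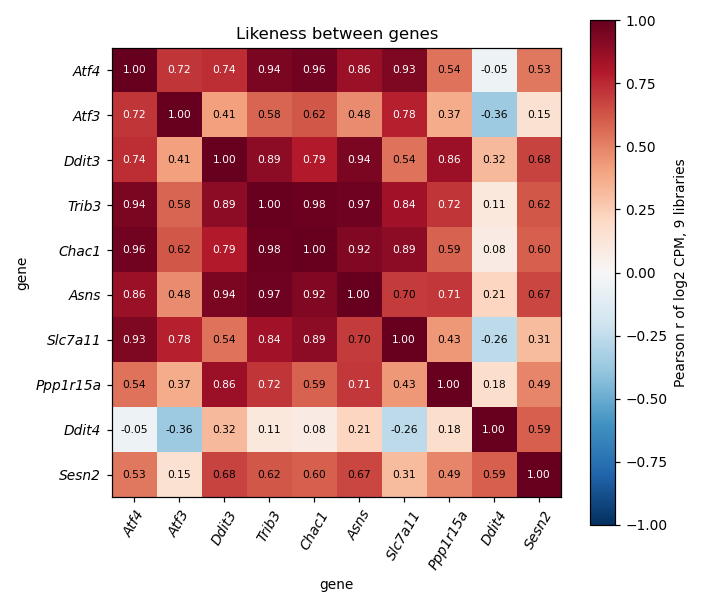
Pearson r of log2 CPM between each pair of the 10 genes over the 9 libraries, which fall into 3 states. Trib3, Chac1, Asns and Atf4 form the darkest block, with r from 0.86 to 0.98, and Ddit4 is pale against nearly every other gene.

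Over the 9 libraries, which share their states and their scaling, the 45 pairs of genes had a median Pearson r of 0.62, with 12 pairs above 0.8 and 3 below 0. The highest were Chac1 with Trib3 (0.98), Asns with Trib3 (0.97) and Atf4 with Chac1 (0.96), and the lowest was Atf3 with Ddit4 (-0.36). Trib3 had the highest median r with the other members, 0.84, and Ddit4 the lowest, 0.11. Among 10719 genes outside the set with a mean of at least 5 CPM, those most like the mean z-score of the 10 were Tmem109 (r = 0.99), Mthfd2 (0.99), Apba3 (0.98), Vegfa (0.98) and Trit1 (0.98). Mthfd2, the mitochondrial one-carbon enzyme, averaged 251 CPM in EpiLC, 162 in aEpiLC and 125 in pEpiLC.

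No test compared the 5 genes with the TGATGNAAN letters with the 5 without them, and their values are given side by side. In aEpiLC the former stood between 43.2% (Trib3) and 112% (Atf3) of EpiLC, and the latter between 33.7% (Ddit3) and 88.1% (Atf4). In pEpiLC the former stood at 79.5% (Atf3), 58.9% (Slc7a11), 50.7% (Asns), 31.7% (Chac1) and 24.8% (Trib3) of EpiLC. The latter stood at 97.8% (Ddit4), 89.6% (Sesn2), 67.4% (Atf4), 41.4% (Ppp1r15a) and 26.6% (Ddit3). For the other lists below, genes with a promoter in the set were counted, and a match in any promoter of a gene sufficed. The share of 3.95% over all was instead counted per promoter. The letters were in 5 of 16 further ATF4 pathway genes, 5 of 13 cytosolic tRNA synthetases and 2 of 14 amino acid and one-carbon enzymes. They were also in 1 of 8 amino acid transporters and 1 of 7 eIF2 and eIF2B subunits. The letters were in none of 18 genes of the ER chaperone list, 11 p53 targets, 9 NRF2 targets, 14 hypoxia targets, 11 immediate early genes and 6 kinases and phosphatase subunits.

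None of the 4 eIF2 kinases was called lower than in EpiLC in either later state. Eif2ak1 (HRI, the heme-regulated kinase) rose from 44.3 ± 3.09 CPM in EpiLC to 59.5 ± 3.61 in aEpiLC (log2 fold change 0.41) and 62.3 ± 2.32 in pEpiLC (0.49). Eif2ak2 (PKR, which senses double-stranded RNA) rose from 11.5 ± 1.297 to 14.5 ± 1.25 CPM in aEpiLC (0.32, adjusted p = 0.0458), and its pEpiLC mean was 14.98 ± 1.28 CPM (adjusted p = 0.0538). Eif2ak3 (PERK, the ER stress sensor) rose from 26.3 ± 1.58 to 31.8 ± 0.576 CPM in aEpiLC (0.26) and was lower in pEpiLC than in aEpiLC, at 21.2 ± 2.92 CPM (-0.59, adjusted p = 0.0142). Its pEpiLC libraries also lay below those of EpiLC, at a log2 fold change of -0.31 (adjusted p = 0.0636). Eif2ak4 (GCN2, which senses uncharged tRNA) was at 37.8 ± 3.20 CPM in EpiLC and 39.4 ± 0.801 in aEpiLC, and rose to 51.1 ± 5.51 CPM in pEpiLC, above both EpiLC (0.43) and aEpiLC (0.36). The constitutive phosphatase subunit Ppp1r15b and the catalytic subunits Ppp1ca and Ppp1cb were called in no comparison, with log2 fold changes between -0.13 and 0.05, and Ppp1cc rose in pEpiLC over EpiLC only (0.17, adjusted p = 0.0386). Among the 8 subunits of eIF2 and its exchange factor eIF2B, 5 fell in aEpiLC, where 22.6% of all genes tested were called lower, and 3 in pEpiLC, where 21.4% were. Eif2b3 led, from 69.5 CPM to 45.8 in aEpiLC (-0.62) and 50.3 in pEpiLC (-0.47), while Eif2b1 rose from 59.97 to 76.6 CPM in pEpiLC (0.35) and Eif2b4 was higher in pEpiLC than aEpiLC (57.4 against 44.7 CPM, 0.35).

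Other genes of the ATF4 pathway were mostly lower in the later states too. Of 20 further ATF4 pathway genes, 13 fell and 2 rose in aEpiLC (median log2 fold change -0.65), where 22.6% of all genes fell and 24% rose. In pEpiLC 14 fell and 1 rose (-0.94), where 21.4% of all genes fell and 22.8% rose. Nupr1, a stress-induced chromatin protein, fell from 32.7 CPM to 4.31 in aEpiLC (-2.94) and 1.62 in pEpiLC (-4.33), and was lower in pEpiLC than aEpiLC (-1.42). Tnfrsf10b, a death receptor, rose from 30.8 to 40.8 CPM in aEpiLC (0.39). Ndrg1 rose from 5.83 CPM in EpiLC to 34.2 in pEpiLC (2.54), against 4.69 CPM in aEpiLC. In pEpiLC against aEpiLC, 1 of 19 such genes was higher and 3 lower, where 6.28% and 9.3% of all genes were.

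Most genes for charging and making amino acids were lower than in EpiLC as well. For the counts here, 22.6% of all genes fell and 24% rose in aEpiLC, and 21.4% fell and 22.8% rose in pEpiLC. Of 20 cytosolic tRNA synthetases, 17 fell in aEpiLC (median log2 fold change -0.37) and 14 in pEpiLC (-0.44), and none rose. Nars, for asparagine, went from 582 to 360.0 CPM in aEpiLC (-0.71), and Mars1 fell by 0.81 on the log2 scale in pEpiLC. Dars, for aspartate, was higher in pEpiLC than aEpiLC (151 against 129 CPM, 0.22). Of 17 enzymes of amino acid synthesis and one-carbon metabolism, 12 fell and 2 rose in aEpiLC (median -0.39), and 10 fell and 1 rose in pEpiLC (-0.40). Pycr1, of proline synthesis, fell from 49.0 CPM to 19.8 in aEpiLC (-1.33) and 12.8 in pEpiLC (-1.94). Shmt1, of one-carbon metabolism, was higher in pEpiLC than aEpiLC (131 against 107 CPM, 0.29). Pycrl rose from 29.7 to 46.2 CPM in pEpiLC (0.63), and Cbs, of cysteine synthesis, rose from 34.1 to 55.3 CPM in aEpiLC (0.68).

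Of 12 amino acid transporters, 6 fell and 3 rose in each later state against EpiLC. Over all genes, 22.6% fell in aEpiLC and 21.4% in pEpiLC, and the count that rose is at the background of 24% and 22.8%. The arginine and lysine carrier Slc7a1 fell from 125 to 66.5 CPM in aEpiLC (-0.93), and the glycine carrier Slc6a9 from 37.3 to 12.8 CPM in pEpiLC (-1.55). Slc36a4 rose from 3.71 CPM to 6.60 in aEpiLC (0.82) and 9.78 in pEpiLC (1.39). In pEpiLC against aEpiLC, Slc7a6 was higher (0.44) and Slc38a2, the system A carrier SNAT2, lower (-0.39).

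The unfolded protein response of the ER shares the PERK branch with this response and has other arms of its own. Of 22 chaperones and genes of the other arms, 3 fell and 2 rose in aEpiLC (median log2 fold change -0.09), where 22.6% of all genes fell and 24% rose. In pEpiLC 5 fell and 5 rose (-0.06), which is at the background of 21.4% and 22.8%. No test compared this list with the 10 genes. Hspa5 (BiP), the main ER chaperone, was at 595, 599 and 582 CPM on average in EpiLC, aEpiLC and pEpiLC and was called in no comparison. Dnajc3 rose from 23.7 CPM to 30.9 in aEpiLC (0.37) and 35.7 in pEpiLC (0.59), and Atf6 fell from 36.3 to 26.6 CPM in aEpiLC (-0.46). Derl3 fell from 6.38 to 2.23 CPM in pEpiLC (-1.52) and was lower there than in aEpiLC (-1.24), whereas Hyou1 was higher in pEpiLC than aEpiLC (0.33).

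**Figure D4:**
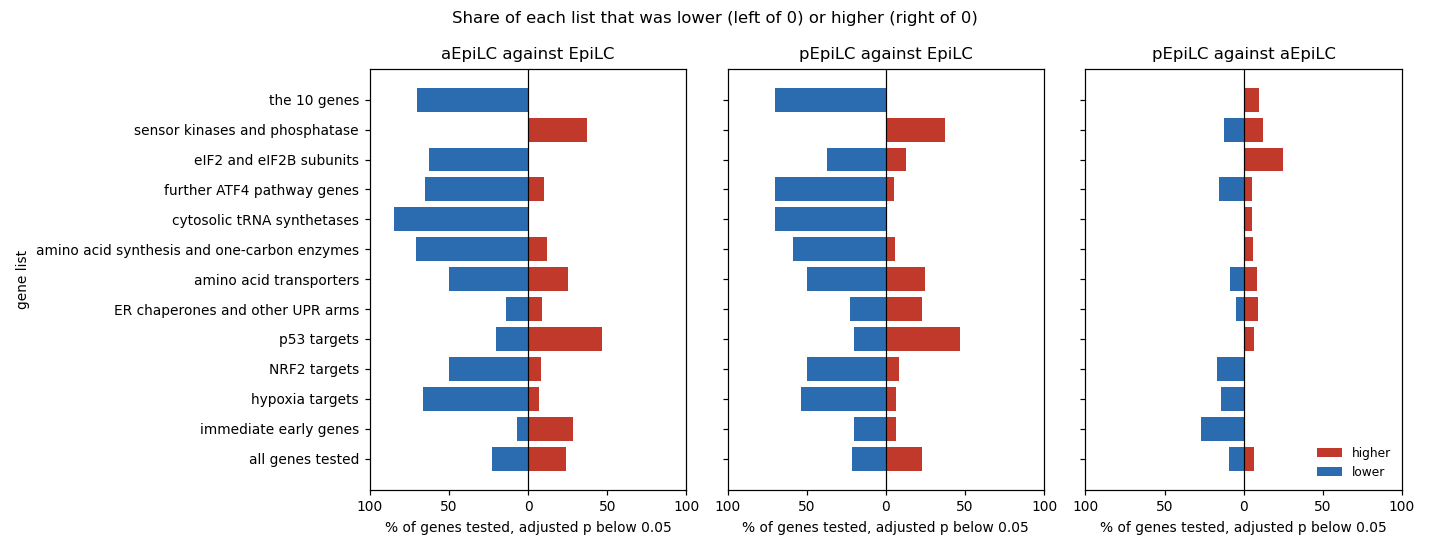
Share of each gene list (percent of the genes tested) that was lower (bars left of 0) or higher (bars right of 0) at an adjusted p below 0.05 in each comparison, with all genes tested in the bottom row. Bars reach past 50% on the left against EpiLC in both later states for the 10 genes, further ATF4 pathway genes, tRNA synthetases, amino acid enzymes and hypoxia targets, and those of ER chaperones stay under 25% on both sides.

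Other stress programmes can raise some of the same genes, and their counts read against the shares of all genes given above. Of 15 p53 targets, 7 rose and 3 fell in each comparison with EpiLC. Perp, an adhesion gene, rose from 5.71 to 28.0 CPM in aEpiLC (2.28), Pmaip1 fell from 127 CPM to 64.0 in aEpiLC (-1.002) and 74.1 in pEpiLC (-0.78), and Cdkn1a (p21) was higher in pEpiLC than aEpiLC (120.4 against 45.2 CPM, 1.40). Fas was at 0.166 CPM in EpiLC, near the detection limit, and 1.31 CPM in pEpiLC. Of 12 NRF2 targets, 6 fell and 1 rose in each comparison with EpiLC, with 11 fitted values below 0 in each: Hmox1 fell from 81.2 to 55.5 CPM in aEpiLC (-0.56), Osgin1 from 1.58 to 0.645 CPM in pEpiLC (-1.29), and Me1 rose in aEpiLC (0.54) and pEpiLC (0.36). Nqo1 was lower in pEpiLC than aEpiLC (-0.71).

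Of 15 hypoxia targets, 10 fell and 1 rose in aEpiLC and 8 fell and 1 rose in pEpiLC, both with 13 fitted values below 0 and a median log2 fold change of -0.66. The glucose transporter Slc2a1 was at 237 CPM in EpiLC, 1431 in aEpiLC (2.58) and 150.5 CPM in pEpiLC, lower there than in aEpiLC (-3.26). Egln1 rose in pEpiLC (0.39), and Car9 was under 1 CPM in each state's mean and was called lower in both later states (-1.99 and -1.88). Immediate early genes, which answer to growth factors within minutes, rose in 4 and fell in 1 of 14 in aEpiLC, the former near the background of 24%, with Myc lower (-1.10) and Egr2 at 0.402 and 1.25 CPM. In pEpiLC 1 rose and 3 fell of 15, the latter at the background of 21.4%, with Egr3 at 0.108 CPM in EpiLC, under the detection limit, and 1.21 CPM in pEpiLC, and Ier3 lower than in EpiLC (-1.54) and aEpiLC (-1.90).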

How the data were processed

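Paired-end RNA-seq libraries of 3 states of mouse cells, 3 per state, were analysed from 1 deposited table. Per the labels, the authors mapped reads with STAR 2.7.9a to GRCm38 and estimated expected counts per gene with RSEM 1.3.1. The deposited expected counts are not normalized, the annotation and strandedness are not given in the sources used here, and 19.7 to 21.1% of values per library are not whole. Counts were rounded to whole numbers.

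Only the 6 libraries of the 2 states compared entered a fit, made with edgeR 4.0.16 (R 4.3.3, limma 3.58.1): TMM, filterByExpr and the quasi-likelihood F test (glmQLFit, glmQLFTest). Calls were made at an adjusted p (Benjamini-Hochberg, all genes tested) below 0.05, with no fold limit. Standard errors came from the fold change and F. CPM used TMM factors over 9 libraries. Log2 CPM had a prior count of 2. An exact permutation test of 3 against 3 libraries cannot go below p = 0.1 and was not used. The code was run on simulated counts with 1 fixed dispersion and changes larger than most of those reported here, so that run supports no call. Alternatives were DESeq2 1.42.0, RLE size factors, the likelihood ratio test, no filter, at least 10 counts in every library, all 9 libraries in one fit, the replicate number as a block, a fold limit of 1 on the log2 scale, and leaving out each replicate.

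The 10 genes and all lists were chosen with earlier results of these data known. Besides them, the eIF2 kinases and phosphatase subunits, the called gene with the largest change in each direction of every other list and comparison, and the 5 genes most like the mean z-score of the 10 are named. Hspa5 was added after its values were seen. List symbols absent from the table were matched by synonym (Mars1, Pycrl), and 1 gene of the lists is not reported here. Gene models are from GENCODE vM21, in which 22803 symbols (97.2%) matched 1 gene, and promoters from RefSeq.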

Additional observations from a re-analysis of the deposited data

Results flagged for a closer look

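The genes below changed differently from EpiLC in the 2 later states, by the direct test of pEpiLC against aEpiLC (edgeR's quasi-likelihood test, adjusted p below 0.05, log2 fold changes). Of the other lists, only the kinases and phosphatase subunits called and the most changed called gene of each list in each direction are shown. Calls in both directions rest on few libraries: without any single aEpiLC replicate, 2 genes of the wider lists were called higher in place of 10, and 12, 6 and 5 were called lower in place of 14 without replicates 1, 2 and 3. Over all genes, calls fell from 2369 to between 774 and 1026. Among the 10 integrated stress response genes this was Ddit4, at 0.38. Of the upstream kinases and initiation factors, Eif2ak3 was at -0.59, Eif2ak4 at 0.36 and Eif2b4 at 0.35. Of further ATF4 pathway genes, Nupr1 was at -1.42 and Ndrg1 at 2.86. Of the amino acid genes, Dars was at 0.22, Shmt1 at 0.29, Slc38a2 at -0.39 and Slc7a6 at 0.44. Of the other stress programmes, Hyou1 was at 0.33, Derl3 at -1.24, Cdkn1a at 1.40, Nqo1 at -0.71, Slc2a1 at -3.26 and Ier3 at -1.90. With 3 libraries in each group, no single value was tested for a library far from the others.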

How the results depend on the processing

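Against EpiLC, Ddit3, Asns, Trib3 and Ppp1r15a were called lower in both later states in each of the 13 other fits without a fold limit. With a fold limit of 1 on the log2 scale, 2 of the 10 genes were lower in aEpiLC and 4 in pEpiLC, in place of 7 and 7, and 0 were higher in pEpiLC than aEpiLC. With the same limit the 11 other lists had 7 higher and 12 lower in aEpiLC (25 and 76 without it), 6 and 21 in pEpiLC (24 and 72), and 2 and 8 in pEpiLC against aEpiLC (10 and 14). All genes called then numbered 1911 (of 7130), 2421 (of 6759) and 1108 (of 2369). In pEpiLC against aEpiLC, 3 of the 10 genes were lower with DESeq2, with all 9 libraries in one fit and at an unadjusted p below 0.05. Without replicate 1 of both states, 6 were lower. The last 2 settings were chosen after seeing the data. Over all genes, 10.8% were lower with DESeq2, 12.5% in the 9-library fit and 12.5% without replicate 1 of both states. DESeq2 and the 9-library fit named 16 and 19 genes of the other lists higher.

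Leaving out 1 replicate gave 4 to 7 of the 10 genes lower in pEpiLC than EpiLC, 4 of them without any single EpiLC replicate or without pEpiLC replicate 3. Over all genes, 14% to 26% were called lower in these fits. Between the later states, leaving out 1 replicate gave 0 to 1 of the 10 higher and 0 to 2 lower. Over all genes, 1.79% to 8.81% were higher and 3.2% to 12.8% lower. Of the other lists, 2 to 18 genes were higher and 5 to 15 lower. Between 774 and 3340 genes were called in all, the most without pEpiLC replicate 1 and the fewest without aEpiLC replicate 2. The sign turned for 3 values that were not called: Sesn2 in pEpiLC against aEpiLC (-0.0123 to 0.13, negative without aEpiLC replicate 1), Slc7a11 in aEpiLC against EpiLC (-0.15 to 0.22, negative without aEpiLC replicate 2) and Ddit4 in pEpiLC against EpiLC (-0.11 to 0.11, positive without EpiLC replicate 3). Leaving out a replicate leaves fewer samples, and otherwise the cause was not tested.

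Replicate numbers gave no pairing by design. Deviations of same-numbered libraries from their state means correlated at 0.18, 0.12 and 0.06 between pEpiLC and aEpiLC and between -0.06 and 0.03 against EpiLC, not all over 0.1. As a hint from the data, every library correlated best with its own number between pEpiLC and each other state, but 1 of 3 did between aEpiLC and EpiLC. With a replicate block, Atf4, Chac1, Trib3 and Slc7a11 (4 of the 10 genes) were lower in pEpiLC than aEpiLC, and 24 genes of the other lists were lower. In that fit 2464 genes were called in all, with 9.7% of all genes lower and 6.51% higher.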
